A study of Rattus norvegicus with 2 samples.

Results

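Bcl2l1, Cacna2d1, Pfkfb2 and Thra are genes for which the array carried several probes, each named for another transcript. In each gene the probes differed in opposite directions between sevoflurane-treated and control cells. The members are the 4 genes, with 12 probes, out of 13888 genes and 24684 probes in all. They were selected on the measured probe differences of these same arrays: every gene had at least 1 probe at least 2-fold higher and at least 1 probe at least 2-fold lower in the sevoflurane sample, all well above background on both arrays. The probe differences below therefore describe the choice and are not evidence for it.

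The samples were cultured neural stem cells, the precursors of neurons and glia, from the hippocampus of Sprague-Dawley rats of postnatal day 3. Cells of passage 3, grown without serum and with the growth factor bFGF, were held for 6 h under 2.4% sevoflurane, an inhaled general anaesthetic, or under 0% sevoflurane, and the labels add 24 h in an ordinary incubator at 37 °C and 5% CO2. Total RNA was labelled with Cy3 by random priming along whole transcripts. There was 1 array for the sevoflurane group and 1 array for the control group, so no difference has a replicate check and no test was possible. The labels do not say whether an array holds RNA of 1 culture or of a pool, or how many animals were used.

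The question behind the comparison is how the RNA of these cells differs after sevoflurane, and for genes with several transcripts it has to be asked of each transcript. Bcl2l1 encodes BCL-X, whose alternative splicing gives a long protein that protects cells from apoptosis and a short one that promotes it. Cacna2d1 encodes the alpha-2-delta-1 subunit of voltage-gated calcium channels, which brings channels to the cell surface and binds gabapentin. Pfkfb2 encodes a bifunctional enzyme that makes and degrades fructose 2,6-bisphosphate, the strongest activator of phosphofructokinase in glycolysis. Thra encodes the thyroid hormone receptor alpha; its splicing gives a receptor that binds the hormone and a variant with another end that does not. The files pair a probe with a RefSeq accession and the gene table pairs the accession with a gene. Neither says which protein form an accession encodes, so transcripts are called by accession here. The probe sequences were not at hand, so whether a probe reads only its named transcript is unknown.

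Thra and Pfkfb2 differ in their listed starts, and the bases before those starts are shown for that reason. The RefSeq promoter table (build GRCr8) lists 2 starts for Thra and 1 for Pfkfb2, and also 4 for Bcl2l1 and 3 for Cacna2d1. The 250 bases before each start, 5′ to 3′ on the gene's strand, carry the letters GGGCGG or their complement CCGCCC in capitals.
Thra, first start, chr10:84197891-84198140, plus strand: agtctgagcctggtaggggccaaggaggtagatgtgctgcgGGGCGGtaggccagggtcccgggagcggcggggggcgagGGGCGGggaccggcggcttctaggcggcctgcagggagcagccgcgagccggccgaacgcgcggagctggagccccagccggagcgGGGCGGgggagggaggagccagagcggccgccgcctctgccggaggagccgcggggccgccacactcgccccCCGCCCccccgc
Thra, second start, chr10:84209708-84209957, plus strand: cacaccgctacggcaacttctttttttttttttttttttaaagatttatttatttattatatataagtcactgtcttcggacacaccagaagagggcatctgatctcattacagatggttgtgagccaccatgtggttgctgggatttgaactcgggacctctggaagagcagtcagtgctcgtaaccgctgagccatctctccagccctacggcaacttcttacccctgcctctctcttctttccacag
Pfkfb2, only listed start, chr13:44726972-44727221, minus strand: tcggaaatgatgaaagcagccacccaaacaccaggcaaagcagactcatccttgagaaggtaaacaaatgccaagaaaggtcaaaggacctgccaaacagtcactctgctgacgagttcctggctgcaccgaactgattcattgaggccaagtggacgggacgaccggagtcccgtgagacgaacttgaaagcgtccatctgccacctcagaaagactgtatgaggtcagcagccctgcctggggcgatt

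The starts of Thra lie 11817 bases apart and have unlike surroundings. The window before the first start is 79.6% G or C, with 30 CpG pairs and 4 matches to GGGCGG on either strand. The window before the second start is 44.8% G or C, with 7 CpG pairs and 0 matches, and its last letters, a run of pyrimidines and then cag, are those of a splice acceptor. This listed start may be the end of an incomplete transcript record, and the window may not be a promoter. Of 33469 windows in the table, 2.49% end in CAG and 30.5% hold GGGCGG on either strand; the median G and C content is 51.2%. The Pfkfb2 window is 53.2% G or C, with 10 CpG pairs and 0 matches. The 3 Cacna2d1 starts lie within 285 bases of each other in windows of 76.8% to 78.8% G or C, and the 4 Bcl2l1 starts lie within 1525 bases, with 57.6% G or C before the outermost and 41.2% before the innermost. TATAAA, sought on both strands and present in 12.9% of all windows, was in 0 of these 10 windows. No table used here pairs a start with an accession, so the starts cannot be tied to single probes.

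A probe was taken as measured where the scanner software called most of its spots well above background on each array, which held for 16047 of 24629 usable probes. Sevoflurane alone passed for a further 4491 and control alone for 396. The 75th percentile of signal was 363 for sevoflurane, against 692 for control. Each array's values were set relative to it, which adds 0.93 to an unscaled log2 ratio of sevoflurane over control. Differences are sevoflurane minus control in log2 units, and 1 unit is 2-fold. Of the measured probes, 32.8% were at least 2-fold higher and 12.3% at least 2-fold lower, and the median was 0.36. The difference depended on level: with the measured probes in 10 equal groups by mean level, group 1 the dimmest, its median was 1.73 in group 1, -0.17 in group 8 and 0.17 in group 10. The file headers give a scan day of its own to each array, so the effect of the day and that of sevoflurane cannot be told apart.

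All 12 member probes passed the background filter, each rested on 1 spot, and none of these spots was an outlier to the scanner software. Of the 12, 6 were at least 2-fold higher and 5 at least 2-fold lower; the remaining one was lower by less than 2-fold. Since opposite directions were required of each gene, these counts follow from the choice. The error given with a difference comes from the scanner software's error of each spot signal. It was between 0.20 and 0.38 and leaves out differences between cultures. For bright spots it was a nearly constant share of the signal, such as 270 at a signal of 2698 and 1038 at 10376. The repeated 0.20 is therefore not a spread measured between spots. Among measured probes with 3 or more spots, the SD of the difference between spots of 1 probe had a median of 0.10 over 4234 probes. That median was 0.26 in level group 1 and 0.06 in group 10.

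**Figure D1:**
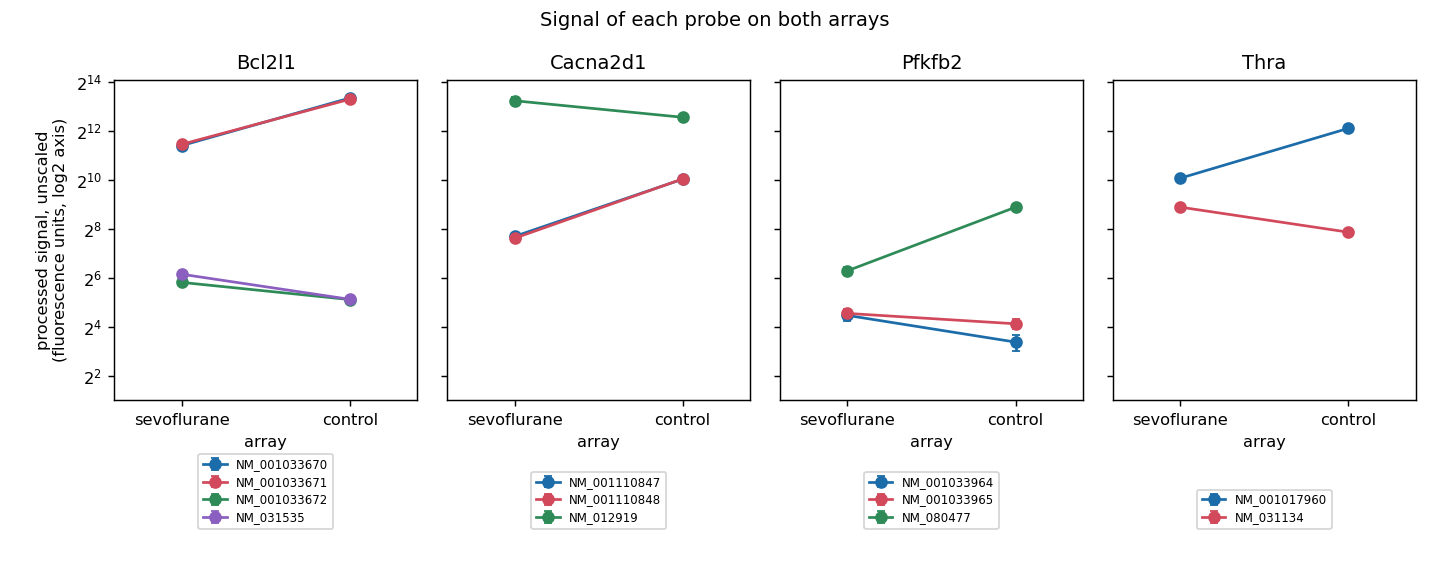
Processed signal of each probe (y axis, fluorescence units without scaling between arrays, log2 axis) on the sevoflurane and the control array; points are single spots and bars the scanner software's error. Within each gene at least 1 line runs down and another up: the Thra probes had 1074 and 473 on the sevoflurane array, against 4402 and 233 on the control array.

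Bcl2l1 had a pair of bright probes that were lower and a pair of dim probes that were higher. The probe for NM_001033670 had a signal of 2698 on the sevoflurane array, against 10376 on the control array, a difference of -1.01 ± 0.20. The probe for NM_001033671 had 2799 on the sevoflurane array, against 10022 on the control array, a difference of -0.91 ± 0.20. These bright probes bracket the 2-fold rule, one just inside and the other just outside it, and differ from each other by only -0.10 ± 0.29. Of the dim probes, the one for NM_001033672 had 56.3 on the sevoflurane array, against 34.6 on the control array, a difference of 1.63 ± 0.23. That for NM_031535 had 70.9 on the sevoflurane array, against 34.8 on the control array, and was higher by 1.96 ± 0.22.

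The ratio of the NM_001033670 signal to that of NM_031535 was 38.1 on the sevoflurane array, against 298 on the control array. Signals of different probes are not amounts of RNA, since probes bind with unlike strength, so only the change of this ratio between the arrays can be read. The dim probes lie in level group 3, where the median difference was 0.96 and 48.6% of probes were at least 2-fold higher. The bright ones lie in group 10, where the median was 0.17 and 9.72% were at least 2-fold lower. Set against the median of their group, the dim probes were thus at 0.68 and 0.998 and the bright ones at -1.18 and -1.08. Over the 8 ways of scaling tried, the bright probes ran between -2.10 and -0.90 and the dim ones between 0.47 and 1.97, and no sign turned.

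Cacna2d1 had the brightest higher probe of the 4 genes. The probe for NM_012919 had 9604 on the sevoflurane array, against 6014 on the control array, a difference of 1.61 ± 0.20. The other probes gave nearly equal values. That for NM_001110847 had 207 on the sevoflurane array, against 1045 on the control array (-1.41 ± 0.20), and that for NM_001110848 had 196 on the sevoflurane array, against 1051 on the control array (-1.49 ± 0.20). The like pair differed by 0.08 ± 0.29. The ratio of the NM_012919 signal to that of NM_001110848 was 49.0 on the sevoflurane array, against 5.72 on the control array.

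These levels lie where the difference depended little on level. The lower pair is in level group 7, with a median of -0.15, where 19.0% of probes were at least 2-fold lower. The bright probe is in group 10, where 16.7% were at least 2-fold higher. In the authors' deposited table the bright probe had 13.48 for sevoflurane and 12.09 for control, and NM_001110848 had 7.98 and 9.54. Scaling by the median over all probes, which lowers every difference by 1.09, left the bright probe at 0.52, the lowest of the 8 values. Its highest was 1.62, and the lower pair ran between -2.58 and -1.07. The file carries an older version than the gene table for NM_012919, as it does for NM_001033964 and NM_001033965 of Pfkfb2 and NM_001017960 of Thra, so these records were revised after the probes were named.

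For Pfkfb2, 1 probe of moderate signal was lower and a pair near the bottom of the scale was higher. The probe for NM_080477 had 78.2 on the sevoflurane array, against 473 on the control array, a difference of -1.67 ± 0.21. That for NM_001033964 had only 22.1 on the sevoflurane array, against 10.4 on the control array, a difference of 2.02 ± 0.38. The probe for NM_001033965 had 23.4 on the sevoflurane array, against 17.4 on the control array, and differed by 1.35 ± 0.29. The dim pair lies in level group 1. There the median difference was 1.73 and 77.8% of probes were at least 2-fold higher, so the pair stood 0.29 above and 0.38 below the probes of like level.

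The upward direction in Pfkfb2 did not outlast the level-dependent scalings. The probe for NM_001033964 was at -0.25 after an intensity-dependent correction, at -0.20 with quantiles matched and at -0.20 in the authors' deposited table. That for NM_001033965 was at -0.57, -0.60 and -0.60 in the same order. After the intensity-dependent correction the median of level group 1, where this pair lies, was itself at -0.36. The probe for NM_080477 stayed lower in all 8, between -2.75 and -1.21. Pfkfb2 thus had 1 probe whose difference kept its sign and 2 whose sign depended on the scaling. RefSeq lists 3 curated mRNA records for Pfkfb2, each with 1 probe here.

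Thra was the member with 1 probe in each direction, both of good signal. The probe for NM_001017960 had 1074 on the sevoflurane array, against 4402 on the control array, a difference of -1.10 ± 0.20. That for NM_031134 had 473 on the sevoflurane array, against 233 on the control array, a difference of 1.95 ± 0.20. The 2 probes were therefore 2.27-fold apart on the sevoflurane array, against 18.9-fold on the control array. In level group 9, that of NM_001017960, 15.0% of probes were at least 2-fold lower, and in group 6, that of NM_031134, 20.3% were at least 2-fold higher. Relative to the medians of those groups the probes stood at -0.94 and 2.01.

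Both signs held in all 8 scalings, the lower probe running between -2.19 and -0.99 and the higher one between 0.87 and 1.97. In the deposited table NM_001017960 had 10.60 for sevoflurane and 11.63 for control, and NM_031134 had 9.37 and 7.57. In the gene table Nr1d1, which encodes the circadian repressor REV-ERB alpha, and Med24, a subunit of the Mediator complex, overlap Thra. The 2 Nr1d1 probes had 119 and 106 on the sevoflurane array, against 92.9 and 95.4 on the control array, differences of 1.29 and 1.08 (0.74 for the brighter after the intensity-dependent correction). Med24 had 1224 on the sevoflurane array, against 3200 on the control array, a difference of -0.46. Whether signal of these overlapping genes reached a Thra probe was not tested. The other members have overlapping genes too: C4bpb with Pfkfb2, a pseudogene with Bcl2l1 and a long non-coding RNA gene with Cacna2d1. C4bpb had dim signals of 18.6 on the sevoflurane array, against 22.3 on the control array, a difference of 0.67. Their signal in the member probes was not tested either.

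**Figure D2:**
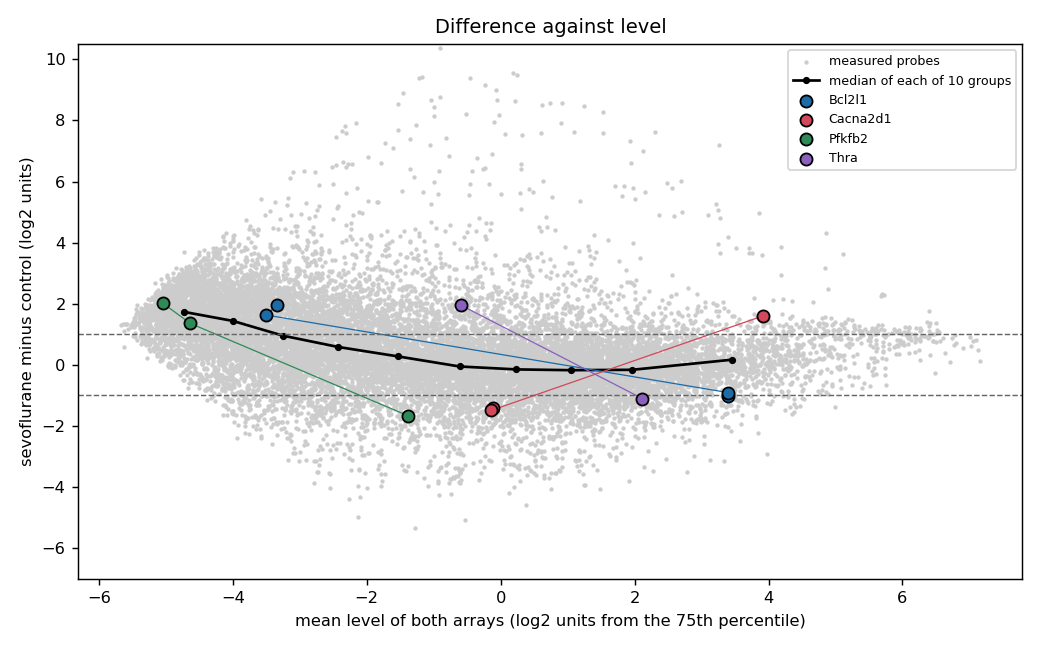
Difference (y axis, sevoflurane minus control, log2 units) against the mean level of both arrays (x axis, log2 units from the 75th percentile) for 16047 measured probes in grey, with the median of each of 10 level groups in black and the probes of 1 gene joined in colour; dashed lines mark 2-fold. The dim Pfkfb2 pair lies along the black line, whereas the Thra and Cacna2d1 probes lie off it on both sides.

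How many of the genes met the rule depended on the scaling. All 4 did under the scaling used, under the median over measured probes and after normexp, a model-based background correction. Cacna2d1 and Thra did so in the authors' deposited table and under quantile normalization, but only Cacna2d1 did after the intensity-dependent correction, where the lower Thra probe was at -0.99. After scaling by the median over all probes 0 of them did, since every higher probe fell short of 2-fold. With outlier-flagged spots kept, Bcl2l1 missed it, at -0.998 for its lowest probe. The signs of the probes in Bcl2l1, Cacna2d1 and Thra depended less on the scaling and were opposite under every one of the 8. Opposite directions were required by the choice, however, and the 8 scalings are not separate checks, since all rest on the same arrays. For the member probes the scaling used, both medians and the keeping of flagged spots differ only by a constant. Differences in the deposited table correlated at 0.998 with those after quantile normalization.

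**Figure D3:**
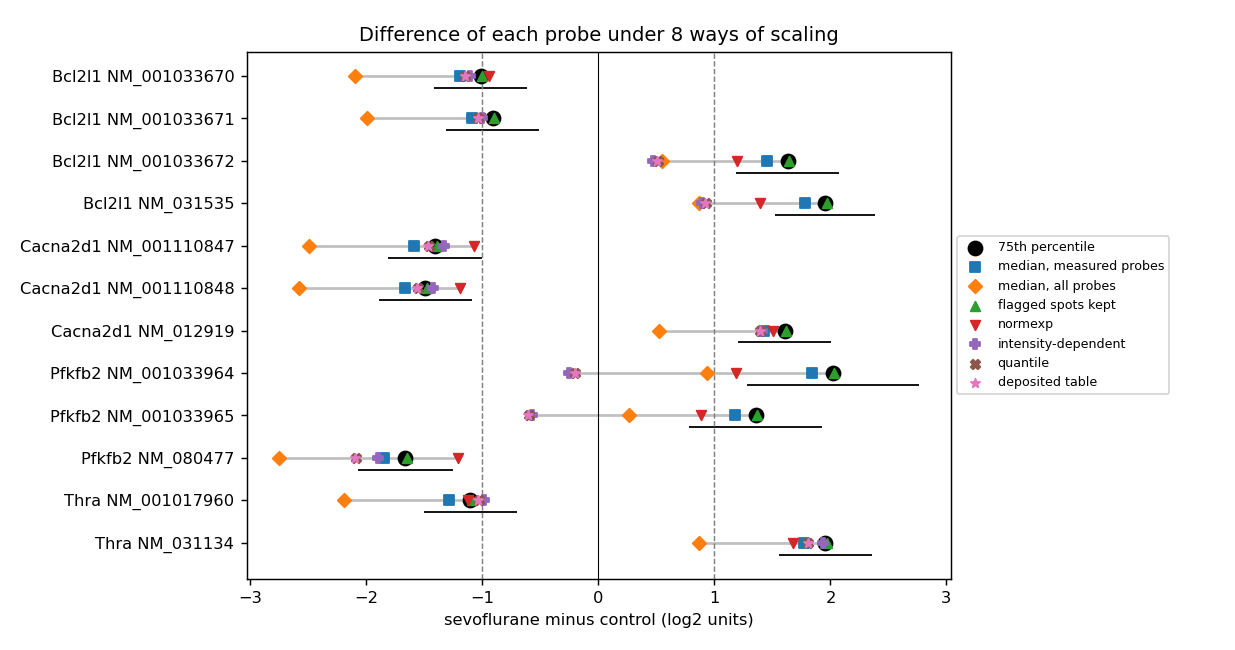
Difference of each probe (x axis, sevoflurane minus control, log2 units) under 8 ways of scaling, 1 row per probe; large black points are the values reported, thin black bars their 95% interval from the scanner software's error, grey lines the range, dashed lines 2-fold. The dim Pfkfb2 probes cross 0, down to -0.60, while the other 10 stay on their side.

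The gap between the highest and the lowest probe of a gene is untouched by any constant scaling. It was 3.69 ± 0.43 for Pfkfb2, 3.10 ± 0.29 for Cacna2d1, 3.06 ± 0.29 for Thra and 2.97 ± 0.30 for Bcl2l1. Over all 237 genes with at least 2 measured RefSeq mRNA probes, the median gap was 0.17 and the 95th percentile 2.38. Probes of 1 gene thus mostly gave like values on these arrays. The members held places 3, 5, 6 and 8 from the top. Opposite 2-fold differences force a wide gap, so these places follow largely from the choice. Gaps of Cacna2d1 and Thra stayed between 2.70 and 3.10 in all 8 scalings. Those of Bcl2l1 and Pfkfb2 were 1.996 and 1.65 after the intensity-dependent correction.

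**Figure D4:**
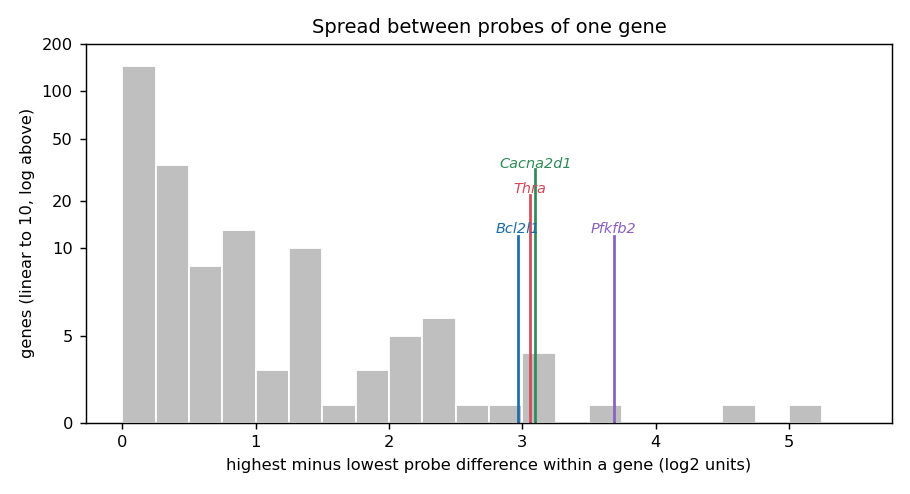
Number of genes (y axis, linear to 10 and logarithmic above) by the gap between their highest and lowest probe difference (x axis, log2 units) for 237 genes; coloured lines mark the 4 members. The members lie between 2.97 and 3.69, beyond the 95th percentile of 2.38, but the rule that chose them required a wide gap.

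A summary per gene depends on which probe stands for it. With the brightest probe, Cacna2d1 was higher by 1.61, while Bcl2l1, Thra and Pfkfb2 were at -0.91, -1.10 and -1.67. With the mean over probes, Cacna2d1 was at -0.43 and Bcl2l1, Thra and Pfkfb2 at 0.42, 0.42 and 0.57, so all 4 signs were turned. Summing the signals of the probes, which weights the bright ones, gave 1.23 for Cacna2d1 and -0.93, -0.65 and -1.09 for Bcl2l1, Thra and Pfkfb2.

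Among all genes with several measured probes, 5 of 237 (2.11%) met the rule of opposite 2-fold differences. The fifth is Kcnk2, the gene of a two-pore potassium channel. Its probe for NM_172042 had 221 on the sevoflurane array, against 1182 on the control array (-1.49), and the one for NM_172041 had 14.7 and 9.63 (1.54). The dim Kcnk2 probe was at -1.05 after the intensity-dependent correction. By the size of the gap alone, the genes most like the members included Ndufv3, Add2, Kcnk2 and Lrrc27. Ndufv3, a subunit of respiratory complex I, had 1 probe at 5.35 and another at 0.23, a gap of 5.11. Add2, which encodes beta-adducin of the membrane skeleton, had 3.73 for NM_001109880 (signals 2976 and 428) and -0.86 for NM_012491 (signals 1370 and 4746), sevoflurane first in each pair. Lrrc27 had 1.92 and -0.74, but -0.18 and -2.48 after the intensity-dependent correction. Likeness rests here on the difference between 2 arrays.

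Relatives of the members by function were set beside them, each gene by its brightest measured probe, and the members themselves are left out of the list counts and medians. Over all 10028 measured genes 27.9% were at least 2-fold higher and 11.5% at least 2-fold lower, and their median difference was 0.25. An intensity-dependent correction, fitted over all probes, removes most of the trend with level. After it the medians of level groups 2 to 10 lay between -0.09 and 0.01, but that of group 1 was -0.36. With this correction ("corrected for level" below) the shares of genes at least 2-fold higher and lower were 13.8% and 17.7%, and the median was -0.07.

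Of 14 other measured genes of the BCL2 family, which governs the release of cytochrome c in apoptosis, 5 were at least 2-fold higher and 1 lower, with a median of 0.62 (corrected for level: 0 higher, 1 lower, median -0.08). Bcl2, an anti-apoptotic relative of Bcl2l1, had 50.5 on the sevoflurane array, against 17.6 on the control array, a difference of 2.45 that was 0.94 after the correction. The pro-apoptotic gene Hrk had 167 and 957, a difference of -1.59, and it was lower in all 8 scalings. Bcl2l11 and Bmf, also pro-apoptotic, were at 1.85 and 1.31 but at -0.38 and -0.31 after the correction. The bright pro-apoptotic genes Bax and Bak1 were at 0.86 and 0.87, under 2-fold. Bcl2a1 was well above background only on the control array, where it was at least 24.7-fold brighter, given against the probe's own level on the sevoflurane array. Pmaip1 was well above background only on the sevoflurane array, at least 4.53-fold brighter there. Its signals were dim, 17.2 on the sevoflurane array, against 4.95 on the control array. The bounds are not corrected for level, and 4491 usable probes passed only on the sevoflurane array, against 396 only on the control array.

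Splicing factors known to act on BCL-X were mostly within 2-fold: 0 of 13 were at least 2-fold higher and 1 lower, with a median of -0.39 (-0.34 after the correction). The lower one was Sf3b1, a core part of the U2 particle, at -1.78 with signals of 14.1 on the sevoflurane array, against 92.3 on the control array. It moved to -0.24 after normexp, but to -3.12 after the intensity-dependent correction and to -3.81 after quantile normalization. Rbm5, which favours the short form, was at -0.86, the SR protein gene Srsf3 at -0.65 and Srsf9 at 0.64.

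Calcium channel subunits went both ways. Of 14 measured besides Cacna2d1, 5 were at least 2-fold higher and 5 lower, with a median of -0.05 (corrected for level: 3 higher, 6 lower, median -0.81). Cacna1b, the pore of N-type channels at nerve endings, had 45.4 on the sevoflurane array, against 982 on the control array, a difference of -3.51. Cacna2d3, the gene of another alpha-2-delta subunit, had 22.1 and 345 (-3.04). The gamma subunit genes Cacng3 and Cacng7 were at 2.20 and 1.94 (1.17 and 1.31 after the correction). Neither of the lower ones turned in any of the 8 scalings.

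In the fructose 2,6-bisphosphate and upper glycolysis list, 6 of 14 genes besides Pfkfb2 were at least 2-fold higher and 1 lower, with a median of 0.60 (corrected for level: 1 higher, 2 lower, median -0.16). Of the sister enzymes of Pfkfb2, Pfkfb3 and Pfkfb4 were at 1.94 and 1.84 with dim signals of 21.0 and 26.6 on the sevoflurane array, against 10.4 and 14.2 on the control array. Both were below 0 after the correction, at -0.36 and -0.13. Pfkfb1 was at 0.30 but at -0.93 after the correction. The hexokinase gene Hk2 was at 1.86 (0.55 after the correction). Pfkp, the platelet form of phosphofructokinase and a target of fructose 2,6-bisphosphate, had 1407 on the sevoflurane array, against 6396 on the control array, a difference of -1.25.

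Of 11 measured genes of thyroid hormone action besides Thra, 8 were at least 2-fold higher and 3 lower, with a median of 1.81 (corrected for level: 4 higher, 3 lower, median 0.74). Dio3, the deiodinase that inactivates the hormone, had 58.7 on the sevoflurane array, against 1504 on the control array (-3.75), and Dio2, the deiodinase that activates it, had 67.6 and 20.8 (2.63, or 1.33 after the correction). Rxra, the receptor's partner on DNA, was at 2.89 and the coactivator gene Ncoa2 at 2.67 (1.78 and 0.997 after the correction). Thrb, the other receptor gene, was well above background only on the sevoflurane array, at least 5.16-fold brighter there. Its signals were dim, 19.6 on the sevoflurane array, against 2.26 on the control array, and this bound is not corrected for level. In level group 1, the dimmest, the median difference was 1.73 and 77.8% of probes were at least 2-fold higher. Hr and Klf9, known targets of the hormone, were at 1.81 and 1.03 (0.73 for Klf9 after the correction).

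**Figure D5:**
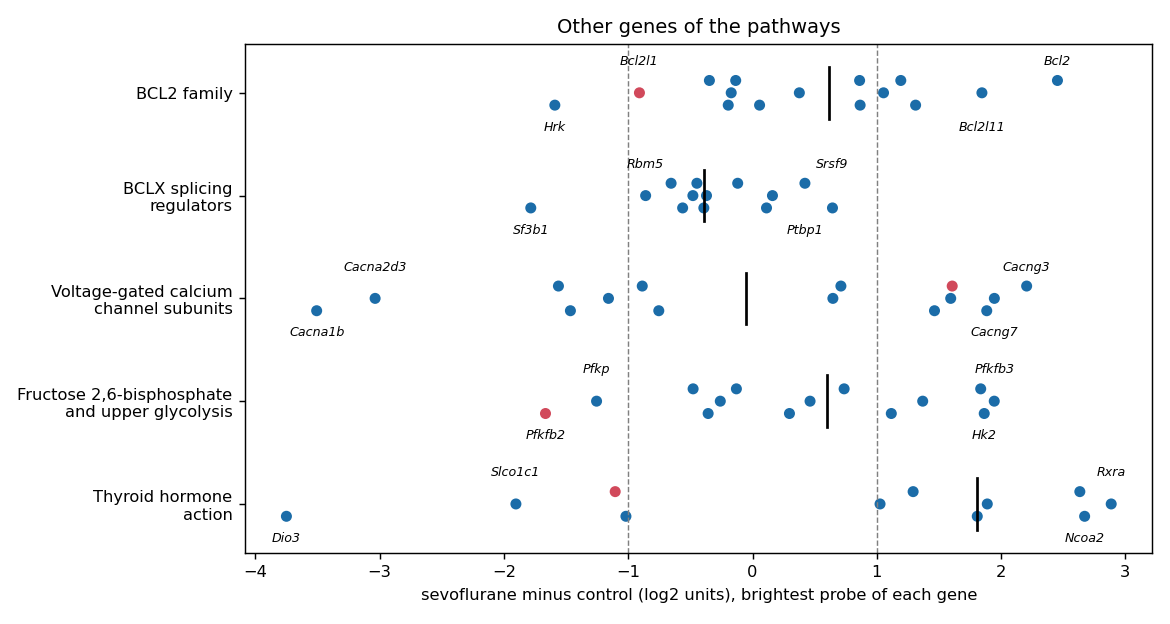
Difference of each gene reported (x axis, sevoflurane minus control, log2 units, brightest probe) in 5 lists of related genes; red points are the members, black bars the medians over the other measured genes of a list, dashed lines 2-fold, and the outermost genes shown are named. Cacna1b and Dio3 lie at -3.51 and -3.75, below the other genes of their lists.

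Markers of cell types differed between the arrays as well, and in such bulk RNA fewer cells of a type and less RNA per cell cannot be told apart. Neural stem and progenitor markers were well above background in 9 of 9 cases, with 2 at least 2-fold higher and 1 lower (corrected for level: 1 and 0). Of 8 neuronal markers 4 were lower and 0 higher (corrected for level: 6 and 0), and their summed unscaled signal was 18656 on the sevoflurane array, against 83726 on the control array; none of them was below background. Of 6 microglial markers 4 were measured, with 3 lower under both scalings, a summed signal of 713 and 7988, sevoflurane first, and Cx3cr1 and Itgam below background on both arrays. All 6 erythroid markers were higher under both, with summed signals of 51166 and 17737, also sevoflurane first, of which Hbb gave 41993 and 16170. All these sums are unscaled and weight the bright probes. The 75th percentile of signal was 363 for sevoflurane, against 692 for control. Of the remaining marker lists, 1 of 5 astrocyte genes was higher and 1 lower, 2 of 7 oligodendrocyte genes were higher and 1 lower, and 3 of 4 mesenchymal genes were higher and 0 lower. Corrected for level, 0 astrocyte genes were higher and 3 lower, 1 oligodendrocyte gene was higher and 2 lower, and 2 mesenchymal genes were higher and 0 lower. Their part in the probe differences of the 4 genes was not tested.

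Neighbouring spots gave the local level of the difference. Among the measured spots within 10 rows and 5 columns of each member spot, 71 to 141 in number, the median difference lay between 0.22 and 0.87. For Thra it was 0.85 around the higher probe and 0.22 around the lower one. For Pfkfb2 it was 0.87 and 0.22 around the higher probes and 0.44 around the lower one. For Bcl2l1 the values were 0.74 and 0.30 around the higher probes, and 0.34 and 0.32 around the lower ones. Cacna2d1 had 0.37 around the higher probe, and 0.62 and 0.43 around the lower pair. The part of these local levels in the probe differences was not tested. Local background was 15.0 to 21.0 at the member spots of the sevoflurane array and 24.5 to 30.0 at those of the control array.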

How the data were processed

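Per the file headers, the scanner files hold linear spot intensity, corrected for background and unscaled between arrays; the submitters' processing notes name Agilent Feature Extraction 11.0.1.1. The deposited value table of 24529 rows holds log2 intensities made by the authors in a way not given in the sources used here; its columns correlated at 0.991 (sevoflurane) and 0.993 (control) with log2 signal and both had a median of 5.62. Its centring is unknown, and its direction follows its column heads.

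Control spots and outlier spots (521 of 42136 on the sevoflurane array, 580 on the control array) were left out, and 0 spots were saturated. Log2 processed signal was averaged per probe, and each array's 75th percentile over probes was subtracted. A probe was measured when over 0.5 of its spots were well above background on both arrays. The array design names build rn4 and the gene table GRCr8, so coordinates are given only for the windows of the RefSeq table. RefSeq accessions without versions named 14274 of 15321 mRNA probes. A few genes are not reported here, though list counts and medians include them. All probes of the members are named, and of each list up to 4 genes with the largest absolute difference, besides genes chosen after their values were seen (Bax, Bak1, Pfkfb1, Pfkfb4, Pfkp, Hr, Klf9, and those above background on 1 array). A bound sets the bright level against the higher of the dim probe's own level and the lowest level called well above background. Alternatives were computed with R 4.3.3 and limma 3.58.1; normexp (offset 50) used median spot signals, the files holding no mean. The members and lists were chosen with earlier results of these data known. With 1 array per group, that number limits the precision.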

Additional observations from a re-analysis of the deposited data

How the results depend on the processing

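No paired analysis was possible because each group has 1 array. The cause of the shifts below was not tested, except that constant scalings move all probes alike. The gap between probes was 2.07 (Bcl2l1) and 1.89 (Pfkfb2) after quantile normalization, 1.996 and 1.65 after the intensity-dependent correction, 2.34 and 2.40 after normexp, and 2.07 and 1.89 in the deposited table. Of the 4 genes, 2 met the rule after quantile normalization, 0 with the median over all probes, 1 with the intensity-dependent correction and 2 in the authors' table; over the array, 3 genes did with the median over all probes. The Pfkfb2 probe for NM_001033964 turned to -0.20, -0.25 and -0.20 and that for NM_001033965 to -0.60, -0.57 and -0.60 (quantile, intensity-dependent, deposited). With the mean over probes, chosen after seeing the data like the median over measured probes, Cacna2d1, Pfkfb2 and Thra were at -0.43, 0.57 and 0.42. Of the list genes, members included, 25 were at least 2-fold higher and 13 lower, but 10, 7, 9 and 10 were higher under quantile normalization, the median over all probes, the intensity-dependent correction and the authors' table, and 33 lower with the median over all probes. Of all measured probes, 15.6%, 12.5%, 15.7% and 15.6% were higher and 21.6%, 41.0%, 19.5% and 21.2% lower in that order. Without the filter on dim probes, 53.9% of the 24629 usable probes were higher. The scanner software's error of the difference was 0.38 and 0.29 for the dim Pfkfb2 pair, against 0.20 for the bright Bcl2l1 pair.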
